A study of Mus musculus with 12 samples.

Results

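The retina of R6/1 mice was compared with the retina of their wild-type littermates by RNA sequencing. R6/1 mice carry a transgene made of human huntingtin exon 1, in which the CAG repeat is expanded, under the human huntingtin promoter, and they are used as a model of Huntington's disease. All mice were males of 13 to 15 weeks on the C57Bl/6 background (C57BL/6 J in the methods of the study), the controls (wt) were littermates without the transgene, and each library was made from RNA pooled from 3 or 4 mice. The 6 retinal libraries (3 wt pools and 3 R6/1 pools) belonged to a series of 12 libraries, the other 6 being from striatum. All genes with at least 10 counts summed over the 6 retinal libraries were kept, which left 16582 of the 17579 genes in the table. The pools are the replicates, so p-values measure the spread between pools and not between single mice. The transgene is human and was not measured in this mouse gene table. The counts of mouse Htt (180, 170 and 157 CPM in wt, 134, 162 and 149 CPM in R6/1) therefore do not check the genotype labels.

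The retina turns light into nerve signals in layers. Rods and cones hold their visual pigment in an outer segment, where light activates an opsin, a G protein called transducin and a phosphodiesterase that lowers cyclic GMP and closes a cation channel. Bipolar cells pass the signal from photoreceptors to ganglion cells, horizontal and amacrine cells shape it on the way, and Müller glia span the tissue and raise the filament protein GFAP when the retina is injured.

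The libraries held between 14070445 and 18661772 counts in wt and between 17024353 and 17926885 in R6/1. Levels are given as CPM, the counts of a gene per 1000000 counts of its library, scaled by the trimmed mean of M-values (TMM), and the 3 values of a group are given in the order of pools 1, 2 and 3. Defining markers of rods (Gnat1), cones (Opn1sw), bipolar cells (Grm6), Müller glia (Rlbp1) and ganglion cells (Pou4f1) were present in all 3 wt libraries, as the tissue label says. Neighbouring tissue differed between single libraries. The summed level of 17 lens genes was 864 CPM in R6/1 pool 3 and 90.4 CPM in wt pool 2, against 17.4 to 34.1 CPM in the other 4 libraries. The summed level of 10 skeletal muscle genes, which were picked after their values were seen, was 598 CPM in R6/1 pool 2 and 28.3 CPM in wt pool 3, against 1.30 to 1.87 CPM in the others. None of the 17 lens genes passed, either by edgeR or by DESeq2, and 0 had an unadjusted p under 0.05. Among the genes named as called here, Cnnm4 and Trem2 did not pass without R6/1 pool 2, and Cntfr, Crh, Csf1r, Ctbp2, Ctsd, Nyx, Psap, Syp and Usp9y did not pass without R6/1 pool 3. The mitochondrially encoded genes took 7.90% ± 0.28 of the counts in wt and 9.29% ± 0.47 in R6/1 (mean ± SD, n = 3 pools, exact two-sided permutation p = 0.1, the smallest p that 3 pools against 3 allow).

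A gene was called lower or higher when the adjusted p of edgeR's quasi-likelihood test was under 0.05. In the R6/1 retina 2103 genes (12.7% of those tested) were lower and 1588 (9.58%) were higher, and fold changes are given as log2 of R6/1 over wt. The groups of 3 pools did not overlap for 38.6% of all genes tested. Most of the changes that passed were small. The median size was 0.53 on the log2 scale among the lower genes and 0.36 among the higher ones, and at least 2-fold changes were seen for 392 lower genes (2.36% of those tested) and 196 higher genes (1.18%). Together the lower genes took 30.8% to 32.0% of the counts in the wt libraries and 18.8% to 20.6% in the R6/1 libraries, whereas the higher genes took 10.1% to 10.3% in wt and 12.6% to 13.0% in R6/1. Because the scaling of the libraries bears on such small changes, it was varied. With library totals in place of TMM factors the median of all genes moved from 0.01 to 0.13 and the split became 1445 lower and 3886 higher. Changes are therefore given relative to the TMM scale, and where a gene group changes direction with library totals this is stated.

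**Figure D1:**
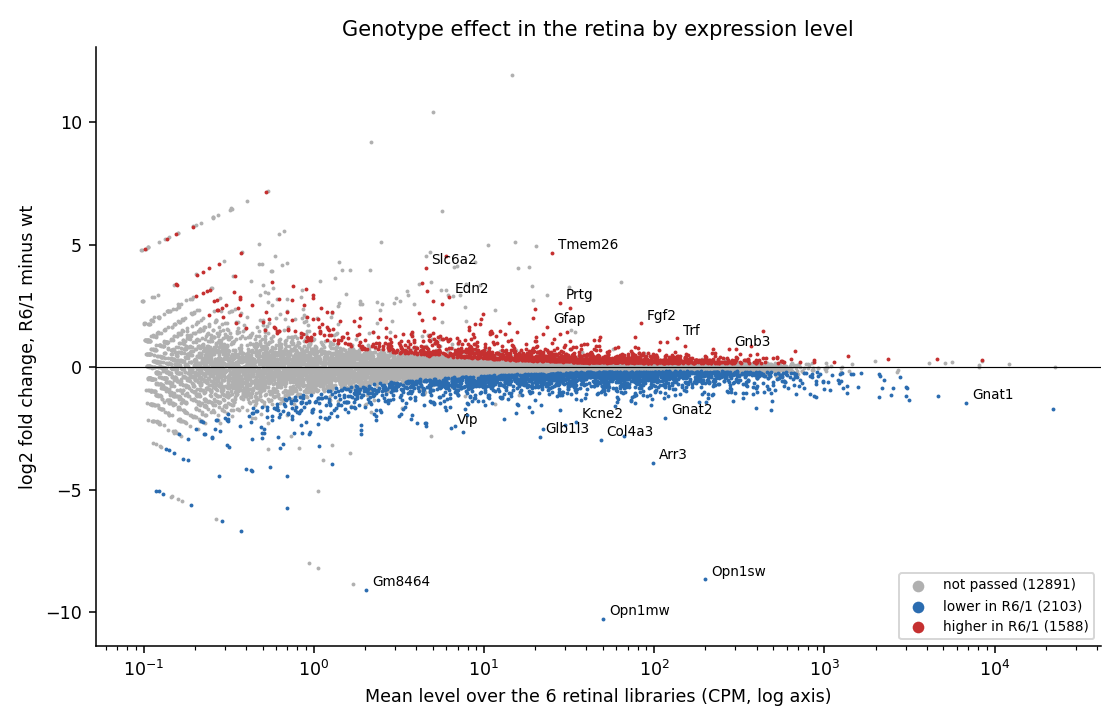
Each point is a gene, with its mean level over the 6 retinal libraries on the x axis (CPM, log axis) and its log2 fold change in R6/1 over wt on the y axis. Blue points (2103 genes) were lower in R6/1 and red points (1588) were higher at an adjusted p under 0.05, grey points did not pass, and among genes above 10 CPM the cone opsins Opn1mw and Opn1sw lie lowest, at -10.27 and -8.65.

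Cone opsin transcripts were almost lost from the R6/1 retina. Opn1sw, the short-wavelength opsin (ENSMUSG00000058831, chr6:29376671-29388468 in GRCm38), had 393, 378 and 418 CPM in wt and 0.903, 0.846 and 1.19 CPM in R6/1, so that log2 of R6/1 over wt was -8.65 (SE 0.11, adjusted p = 9.67e-19). Opn1mw, the middle-wavelength opsin (ENSMUSG00000031394, chrX:74127464-74150760), had 106, 97.9 and 96.3 CPM in wt, and in R6/1 only 1, 3 and 0 counts were found against 1576, 1329 and 1706 counts in wt (adjusted p = 6.93e-16). In counting error alone the wt level of Opn1mw was 529 to 4980 times that in R6/1 (95% exact interval), and that of Opn1sw 312 to 545 times. The groups did not overlap for either gene. Since whole retinas were measured, fewer cells of a type and less RNA per cell cannot be told apart here or in the cell type results that follow.

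Other cone genes fell by much less, and a few rose. Of 15 cone genes 11 were lower and 3 were higher, with a median log2 fold change of -1.55 against 0.01 over all genes tested. Arr3, the cone arrestin that shuts off activated opsin, fell from 227, 141 and 186 CPM in wt to 13.7, 12.5 and 11.3 CPM in R6/1 (log2 fold change -3.89, SE 0.23, adjusted p = 0.000412). Pde6h, the inhibitory subunit of the cone phosphodiesterase, fell from 123, 111 and 116 CPM to 19.6, 12.6 and 17.4 CPM (-2.82, SE 0.14, adjusted p = 2.43e-06). All R6/1 pools lay below all wt pools for both genes, although the wt pools of Arr3 ranged widely. Gnat2, the cone transducin alpha subunit, fell from 189, 191 and 184 CPM to 49.4, 47.3 and 38.2 CPM (-2.06, SE 0.08, adjusted p = 2.89e-10), and Pde6c, the catalytic subunit of the cone phosphodiesterase, fell by 1.55 on the log2 scale (adjusted p = 1.30e-09). The cone channel subunits Cnga3 (-1.70, adjusted p = 6.88e-06) and Cngb3 (-0.89, adjusted p = 1.03e-06) and the cone transducin gamma subunit Gngt2 (-1.05, adjusted p = 7.00e-07) also fell. The loss was thus graded within the cone genes, with the opsins at 1.19 CPM or less in R6/1 while Gnat2 and Pde6c remained above 38 and 46 CPM in each pool.

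Against this direction, Gnb3, a G protein beta subunit used by cones and ON bipolar cells, rose from 207, 195 and 216 CPM in wt to 342, 352 and 330 CPM in R6/1 (log2 fold change 0.73, SE 0.06, adjusted p = 2.07e-07). Gulo, which makes vitamin C in mice, rose by 0.58 (adjusted p = 0.000442), and Cnnm4, a metal transporter linked to a cone-rod dystrophy, rose by 0.22 (adjusted p = 0.0224). The R6/1 pools lay above all wt pools for these 3 genes, but Cnnm4 did not pass without wt pool 1, wt pool 3 or R6/1 pool 2. Slc24a2, the cone sodium, calcium and potassium exchanger, had 133, 115 and 138 CPM in wt and 119, 129 and 133 CPM in R6/1, and the groups overlapped.

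**Figure D2:**
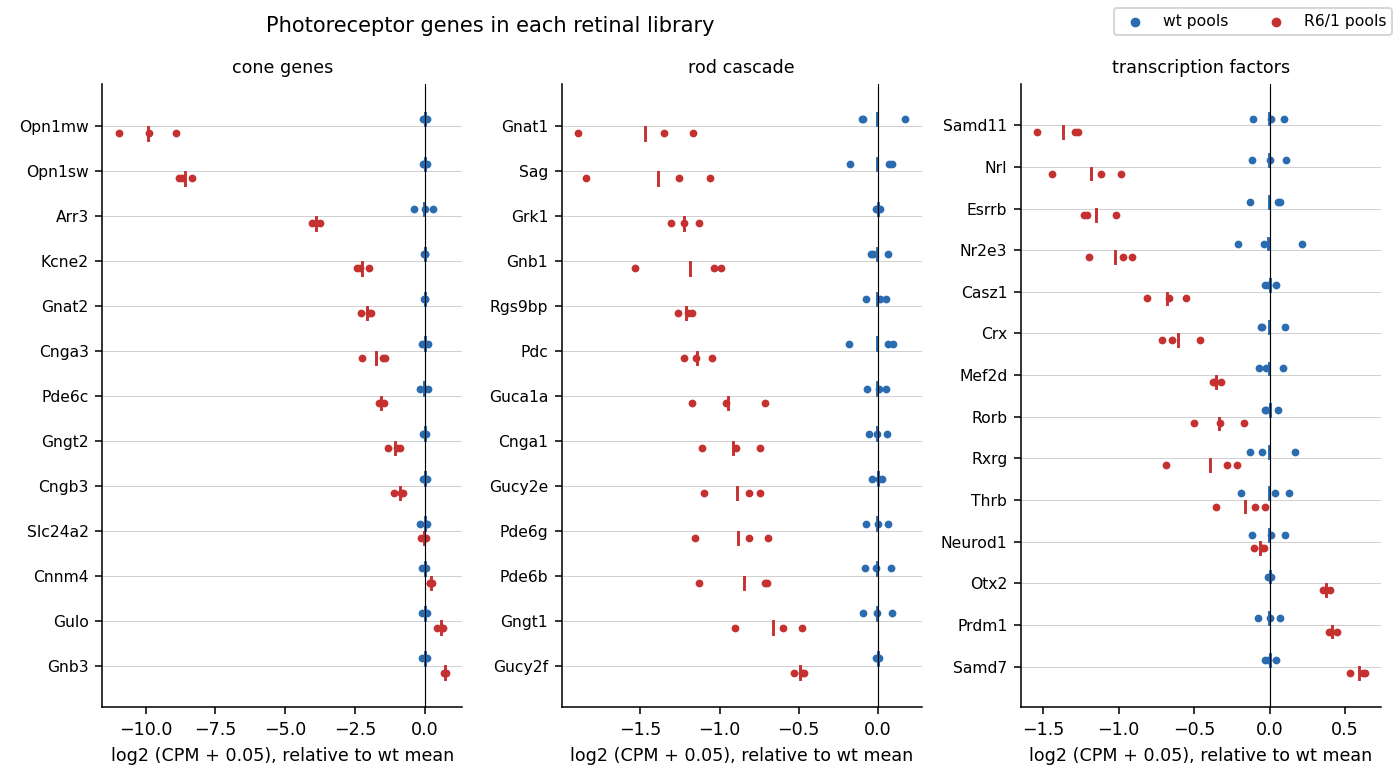
Each point is a retinal library (blue wt, red R6/1, 3 pools each) and each short bar a group mean, as log2 of CPM plus 0.05 relative to the wt mean of that gene. Cone genes spread from the opsins, far below 0 in R6/1, to Gnb3 above 0, the rod genes shown all lie below 0 in R6/1, and among the transcription factors Otx2, Prdm1 and Samd7 lie above 0 in R6/1.

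Rods contribute the most abundant transcripts of the retina. All 21 genes of the rod phototransduction list were lower (median log2 fold change -0.88), and their summed level was 77845 to 87129 CPM in wt and 26935 to 36531 CPM in R6/1. Gnat1, the rod transducin alpha subunit, had 9317, 9299 and 11243 CPM in wt and 3897, 2676 and 4429 CPM in R6/1 (-1.44, adjusted p = 0.00222). Sag, the rod arrestin, fell by 1.35 on the log2 scale (adjusted p = 0.0124, and 0.053 without wt pool 3). R6/1 pool 2 was the lowest of the 6 libraries for Gnat1 and Sag, and in proportion to their mean the R6/1 pools differed more among themselves in these genes than the wt pools did. The guanylate cyclase Gucy2f, which restores cyclic GMP, fell least in this list (-0.49, adjusted p = 1.23e-05), with 612, 620 and 615 CPM in wt and 427, 442 and 445 CPM in R6/1.

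Structural parts of the photoreceptor were less evenly affected. Among outer segment genes 11 of 16 were lower and none was higher, and the falls were largest for the disc rim proteins Prph2 (-1.19, adjusted p = 1.17e-07) and Rom1 (-1.08, adjusted p = 0.000395), with 1 member counted as higher when library totals were used. The interphotoreceptor matrix genes Impg1 (473, 458 and 528 CPM in wt, 438, 436 and 499 CPM in R6/1) and Impg2 (693, 628 and 694 CPM, then 777, 706 and 735 CPM) did not pass. Of 26 genes of the cilium and its transport 7 were lower and 2 were higher, and with library totals these became 6 and 7. In the main test this is 34.6% of the list in either direction, against 22.3% of all genes. At the photoreceptor ribbon synapse 14 of 21 genes were lower, among them Cabp4 (-0.79, adjusted p = 4.57e-07) and the calcium channel Cacna1f (-0.65, adjusted p = 2.88e-06), while Ctbp2, which encodes the ribbon protein RIBEYE, was lower by 0.17 (adjusted p = 0.0376), a call lost without any 1 of 4 libraries, the 3 wt pools and R6/1 pool 3. The count of lower synaptic genes was 7 in a fit of all 12 libraries with 1 shared estimate of spread.

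The transcription factors that set photoreceptor identity moved in both directions. Of 17 such genes 9 were lower and 3 were higher. Nrl, which specifies rods, had 1205, 1299 and 1112 CPM in wt and 609, 444 and 555 CPM in R6/1 (log2 fold change -1.17, adjusted p = 1.12e-05). Nr2e3, its partner, fell by 1.02 (adjusted p = 0.000245), Esrrb fell by 1.15 (adjusted p = 1.16e-08) and Crx, the general photoreceptor activator, fell by 0.60 (adjusted p = 2.58e-05). Samd11 and Samd7 encode related partners of a repressor complex in rods, and they went opposite ways. Samd11 had 386, 444 and 418 CPM in wt and 170, 143 and 172 CPM in R6/1 (-1.36, SE 0.08, adjusted p = 7.08e-09), and Samd7 had 186, 177 and 180 CPM in wt and 278, 261 and 280 CPM in R6/1 (0.59, SE 0.06, adjusted p = 1.18e-06). Otx2, which acts upstream of these factors, rose by 0.38 (adjusted p = 0.000107) and Prdm1, which holds photoreceptor fate against bipolar fate, rose by 0.42 (adjusted p = 0.0015). The cone regulators Thrb and Rxrg did not pass (log2 fold changes of -0.16 and -0.38).

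The promoters of the rod genes were examined because CRX is known to bind a short motif, TAATCC, in photoreceptor genes. RefSeq promoters of GRCm38.p6 (250 bases before to 50 after the start) were searched on both strands. The motif was found in 8 of 14 promoters of the rod list (57.1%) and in 1 of 13 of the cone list (7.69%). It was found in 4 of 21 of the ON bipolar list (19.0%) and in 6.00% of the 15461 promoters of all genes tested. Over all called genes its share was 7.02% of promoters of genes lower in R6/1 and 6.72% of those of genes higher. The search covered 14 of the 21 rod genes, 10 of the 15 cone genes, 16 of the 20 ON bipolar genes and 12123 of 16567 gene symbols. Genes without a promoter in the reference set were not searched, here or for the motifs below. The rod genes with the CRX motif were Cnga1, Cngb1, Gnb5, Gngt1, Guca1a, Gucy2e, Gucy2f and Sag. The promoters of Cngb1, the rod channel beta subunit (log2 fold change -0.78), and of Gnat2, the only searched cone gene with a match, are shown. They are the members of smallest p with the motif in each list, and TAATCC or its reverse complement is in capitals. A match is a description of these letters and not a binding site.
Cngb1 (chr8:95306536-95306835, minus strand): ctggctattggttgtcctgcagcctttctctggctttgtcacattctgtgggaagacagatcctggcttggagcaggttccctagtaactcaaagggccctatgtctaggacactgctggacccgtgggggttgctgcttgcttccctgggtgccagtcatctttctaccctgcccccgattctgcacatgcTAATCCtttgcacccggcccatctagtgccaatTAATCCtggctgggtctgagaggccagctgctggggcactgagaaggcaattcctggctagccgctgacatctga
Gnat2 (chr3:108092816-108093115, plus strand): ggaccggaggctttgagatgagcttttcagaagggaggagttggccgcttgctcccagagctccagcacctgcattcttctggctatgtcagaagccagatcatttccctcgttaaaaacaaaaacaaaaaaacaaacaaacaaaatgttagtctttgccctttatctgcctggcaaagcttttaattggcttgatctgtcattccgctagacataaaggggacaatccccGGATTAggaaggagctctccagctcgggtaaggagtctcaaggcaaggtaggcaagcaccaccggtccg

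In the visual cycle, which returns retinal to the opsins, 2 genes of 14 were lower and 3 were higher. This is 35.7% of the list in either direction, against 22.3% of all genes. The lower ones were photoreceptor retinol dehydrogenases, Rdh12 (456, 492 and 454 CPM in wt, 255, 188 and 226 CPM in R6/1, log2 fold change -1.07, adjusted p = 9.57e-06) and Rdh8 (-0.72, adjusted p = 2.80e-06). Among the higher ones were Rdh10 (0.61), which is known from Müller glia and pigment epithelium, and Rdh11 (0.24, a call lost without wt pool 1, wt pool 3 or R6/1 pool 1). Rpe65, the isomerase of the pigment epithelium, had 16.01, 19.3 and 15.97 CPM in wt and 18.2, 11.05 and 14.4 CPM in R6/1, and the groups overlapped. Of 17 genes of the pigment epithelium list only Otx2, which photoreceptors also express, passed.

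Neurons of the inner retina were lower as well, in each of the 5 lists tested and with no member higher in any of them. The counts were 18 of 20 for ON bipolar cells (median log2 fold change -0.54), 9 of 13 for OFF bipolar cells (-0.44), 9 of 12 for horizontal cells (-0.63), 19 of 31 for amacrine cells (-0.54) and 15 of 26 for ganglion cells (-0.45), against 12.7% of all genes lower. With library totals 1 horizontal and 1 ganglion cell gene were counted as higher. These medians were closer to 0 than those of the rod and cone lists. In the fit of all 12 libraries the counts of amacrine, horizontal, OFF bipolar and ganglion cell genes were 11, 5, 5 and 9, and without wt pool 3 the ganglion cell count was 9.

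ON bipolar cells read the glutamate released by photoreceptors through a receptor cascade, and most of its parts fell together. Grm6, the glutamate receptor, had 117, 109 and 114 CPM in wt and 75.9, 77.4 and 78.4 CPM in R6/1 (log2 fold change -0.56, SE 0.06, adjusted p = 3.40e-06). Trpm1, the channel it closes, fell by 0.73 (adjusted p = 4.26e-06) and Rgs11, which speeds the response, fell by 0.69. Prkca, the usual rod bipolar marker, fell by 0.73 (456, 387 and 454 CPM in wt, 257, 250 and 276 CPM in R6/1), and Pcp2 fell by 1.05 (adjusted p = 3.69e-08). Rgs9bp, the anchor of the RGS9 complex shared by photoreceptors and ON bipolar cells, had 1266, 1296 and 1190 CPM in wt and 545, 522 and 555 CPM in R6/1 (-1.21, adjusted p = 3.14e-09). Nyx and Gpr179, which hold the receptor complex at the synapse, fell by less, Nyx at -0.31 (adjusted p = 0.0241, a call lost by DESeq2, with library totals, in the fit of all 12 libraries and without wt pool 1, wt pool 3 or R6/1 pool 3) and Gpr179 at -0.35 (adjusted p = 0.00113). Of the OFF bipolar genes, Neto1, an auxiliary subunit of kainate receptors, fell most (-1.03, adjusted p = 8.52e-08).

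Among amacrine genes the 3 largest falls were those of neuropeptides. Vip, vasoactive intestinal peptide, had 10.4, 10.8 and 11.4 CPM in wt and 1.81, 1.96 and 2.15 CPM in R6/1 (log2 fold change -2.46, SE 0.15, adjusted p = 8.60e-09). Sst, somatostatin, had 2.29, 1.47 and 1.52 CPM in wt and 0.508, 0.317 and 0.226 CPM in R6/1 (-2.31, adjusted p = 0.00046). Both genes had every R6/1 pool below every wt pool. Crh rested on 17 counts in the 3 wt pools and 4 in the 3 R6/1 pools, and its fall (-2.22, adjusted p = 0.0402) did not pass without any 1 of 5 libraries. Broad amacrine genes fell by less, such as the calcium buffer Calb2 (-1.08), the glycine transporter Slc6a9 (-0.86) and the factor Tfap2b (-0.73). The cholinergic marker Chat (8.47, 6.48 and 7.62 CPM in wt, 5.87, 7.45 and 7.92 CPM in R6/1), the dopaminergic marker Th (1.48, 1.11 and 1.30 CPM, then 1.24, 1.32 and 1.36 CPM) and the GABA enzyme Gad2 (log2 fold change -0.09) did not pass, and their groups overlapped. Gad1, the other GABA enzyme, fell by 0.51 (adjusted p = 0.0254), and did not pass without wt pool 1 or R6/1 pool 1.

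Of the horizontal cell genes, Calb1, a calcium buffer, fell (86.8, 91.2 and 88.3 CPM in wt, 48.4, 38.9 and 40.5 CPM in R6/1, log2 fold change -1.06, adjusted p = 5.49e-08), and so did Gja10, the connexin of their gap junctions (-1.33, adjusted p = 0.000601). Ganglion cell genes that fell included the neurofilament Nefl (472, 500 and 474 CPM in wt, 259, 283 and 293 CPM in R6/1, -0.79, adjusted p = 1.39e-07) and the factors Pou4f1 (-0.69) and Pou4f2 (-0.84). Opn4, melanopsin, had 1.88, 1.55 and 2.09 CPM in wt and 1.13, 0.317 and 0.509 CPM in R6/1 (-1.50, adjusted p = 0.0119, a call lost without wt pool 3). Chrna6, a nicotinic receptor subunit, had 116, 124 and 116 CPM in wt and 54.7, 54.1 and 53.2 CPM in R6/1 (-1.13, adjusted p = 2.62e-09). Tubb3 and Sncg, which are also used as ganglion cell markers, overlapped between the groups (log2 fold changes of -0.10 and -0.12).

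Potassium channel genes were lower in 29 of 55 cases and higher in none, a count that became 21 lower and 2 higher with library totals and 17 lower in the fit of all 12 libraries. Kcnv2, a modifying channel subunit of photoreceptors, fell by 0.71 (adjusted p = 1.66e-06), and Kcne2 had 57.6, 56.0 and 57.9 CPM in wt and 14.2, 11.5 and 10.6 CPM in R6/1 (-2.24, adjusted p = 1.66e-10). Of 28 sodium and calcium channel genes 8 were lower and 2 were higher, which is 35.7% in either direction against 22.3% of all genes. Cacna2d3, an auxiliary calcium channel subunit, fell most (-1.23, adjusted p = 3.20e-09). Of 28 genes of synaptic vesicle fusion 14 were lower and 1, Syp, was higher, which became 9 and 5 with library totals and 7 lower in the fit of all 12 libraries. Syp did not pass without wt pool 1, wt pool 2 or R6/1 pool 3. Glutamate receptors were lower in 8 of 25 cases and GABA and glycine receptors in 9 of 22, with Gabbr1 higher, and both counts fell to 5 without wt pool 3, the first also without R6/1 pool 1, while the second was 3 with library totals. In the main test 32% of the first list and 45.5% of the second were called in either direction, against 22.3% of all genes.

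**Figure D3:**
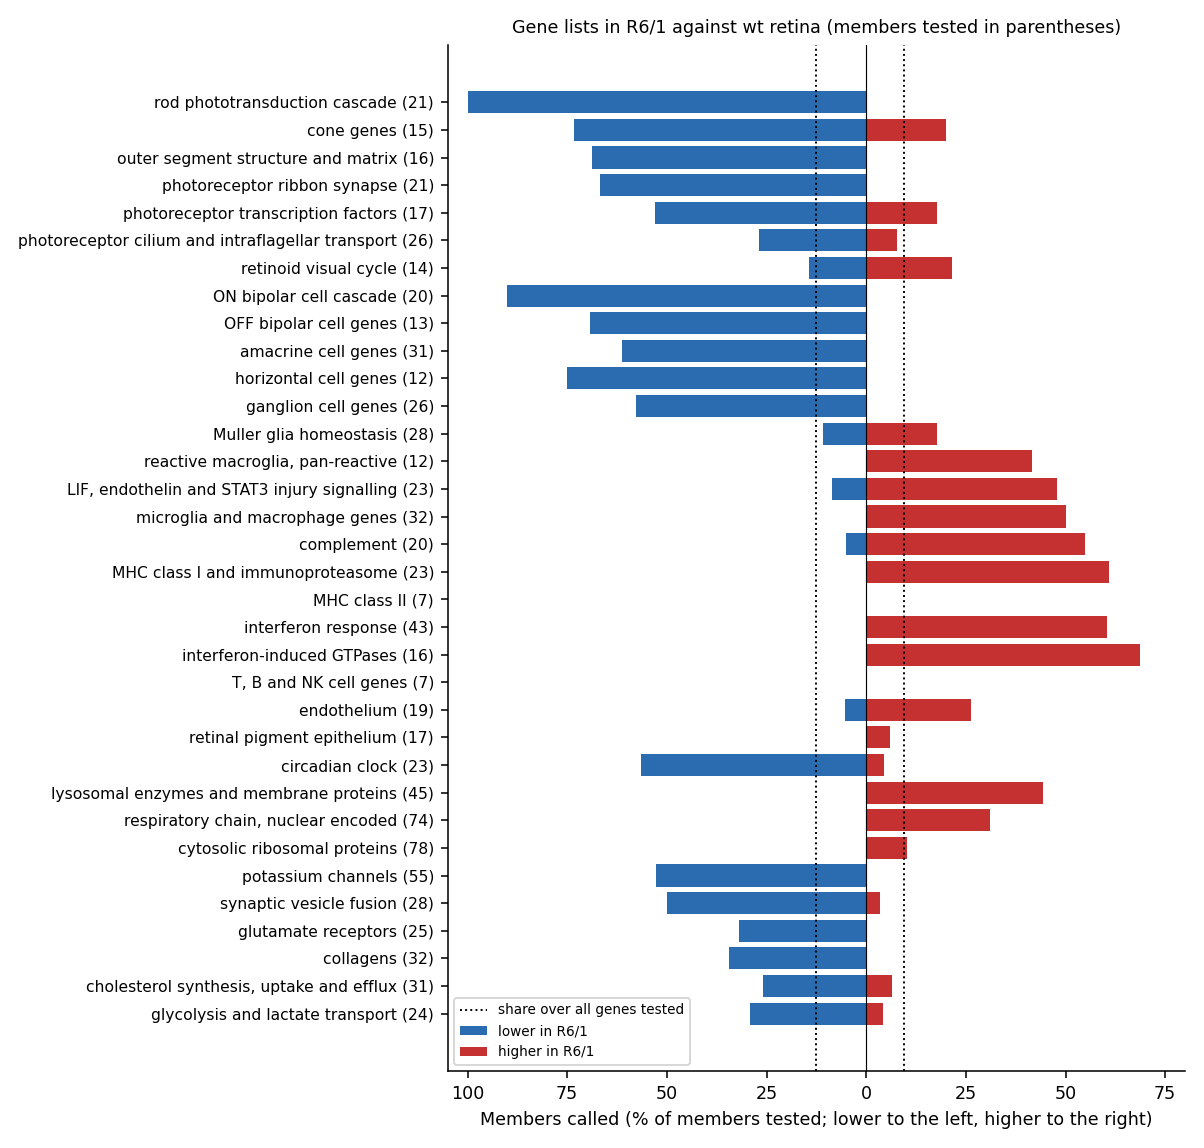
Bars give the share of each list's tested members (numbers in parentheses) that were lower in R6/1 (blue, to the left) or higher (red, to the right) at an adjusted p under 0.05, and dotted lines give the shares over all genes tested, 12.7% lower and 9.58% higher. Photoreceptor lists other than the visual cycle, and inner retinal and clock lists, extend mostly to the left. Glial injury, complement, MHC class I and interferon lists extend mostly to the right. The visual cycle list (14 members) has 2 lower and 3 higher.

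Genes of Müller glia homeostasis mostly did not pass. Of 28 such genes 3 were lower and 5 were higher, which is 28.6% in either direction against 22.3% of all genes. With library totals these counts were 3 and 12. Rlbp1, the retinal binding protein, had 303, 270 and 286 CPM in wt and 321, 284 and 290 CPM in R6/1, and Slc1a3 (glutamate uptake), Aqp4 (water channel) and Kcnj10 (potassium channel) did not pass either. Glul, glutamine synthetase, fell by 0.37 (adjusted p = 0.00491) and Clu, clusterin, rose by 0.55 (adjusted p = 0.00107).

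Genes linked to the injury response of Müller glia were higher, although whole retina does not show which cells their RNA came from. Gfap had 9.82, 11.2 and 13.0 CPM in wt and 32.8, 40.6 and 33.5 CPM in R6/1 (log2 fold change 1.65, SE 0.12, adjusted p = 5.20e-08). Endothelin 2 is known to be released by stressed photoreceptors, and leukaemia inhibitory factor is known to signal to Müller glia through STAT3. Edn2, endothelin 2 (chr4:120161206-120167360), had 1.35, 1.33 and 1.75 CPM in wt and 9.54, 14.4 and 8.88 CPM in R6/1 (2.88, SE 0.21, adjusted p = 1.21e-07). Lif had 0.471, 0.368 and 0.226 CPM in wt and 1.18, 2.11 and 1.08 CPM in R6/1 (2.04, SE 0.43, adjusted p = 0.00252). No R6/1 pool overlapped wt for either ligand, although Lif was scarce in all libraries.

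On the receptor side Osmr rose by 1.22 (adjusted p = 4.13e-06), Lifr by 0.45 (adjusted p = 0.000473) and their shared subunit Il6st by 0.39 (adjusted p = 0.000477), while the endothelin receptor Ednrb (-0.62, adjusted p = 0.0018) and Cntfr (-0.30, adjusted p = 0.0387, not passed by DESeq2 or without any 1 of 4 libraries) fell. Stat3 itself had 41.4, 50.03 and 44.7 CPM in wt and 93.8, 120 and 110 CPM in R6/1 (1.25, adjusted p = 4.46e-07). Its feedback inhibitor Socs3 rose by 2.21 (1.48, 1.25 and 1.64 CPM in wt, 5.92, 8.98 and 5.49 CPM in R6/1), Cebpd by 1.99 and Fgf2, a survival factor for photoreceptors, by 1.78 (34.0, 37.1 and 42.0 CPM in wt, 115, 167 and 108 CPM in R6/1, adjusted p = 0.00561). In all, 11 of 23 genes of this signalling list were higher and 2 were lower, against 9.58% of all genes higher. Serpina3n, a protease inhibitor of reactive astrocytes, rose by 2.17 (adjusted p = 0.000186) and A2m, a plasma protease inhibitor, by 2.41 (adjusted p = 0.0149). R6/1 pool 2, the library with muscle transcripts, was the highest for Gfap, Edn2, Lif, Stat3, Socs3, Fgf2, Serpina3n and A2m, and the part of that tissue in these values was not tested. Without this library all 8 genes still passed, whereas A2m did not pass without any 1 of the wt pools. R6/1 pool 2 was also the highest for C4b, H2-K1, Nlrc5, Ddx58 and Ifit1, which are given below and passed without it. It was not the highest for C1qa, Ctss or Stat2. Of 11 tested genes of the A2 class of reactive astrocytes 0 passed by edgeR or by DESeq2, and 0 had an unadjusted p under 0.05. Of 12 genes of the A1 class 6 were higher and 1, Amigo2, was lower, a call lost with library totals (7 higher and 0 lower) and in the fit of all 12 libraries. The A2 genes were scarcer, with a summed level of 23.9 to 31.9 CPM in wt and 22.6 to 29.9 CPM in R6/1. The A1 genes summed to 140 to 144 CPM in wt and 159 to 187 CPM in R6/1. The part of level in this difference between the classes was not tested.

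Microglia are the resident macrophages of the retina. Of 32 microglia and macrophage genes 16 were higher and none was lower, with a median log2 fold change of 0.86, and their summed level was 86.8 to 89.4 CPM in wt and 130 to 146 CPM in R6/1. The count was 10 by DESeq2 and 10 without wt pool 1. The C1q chains, which open the classical complement pathway, all rose, with C1qa at 2.89, 2.28 and 3.16 CPM in wt and 8.24, 6.66 and 5.09 CPM in R6/1 (1.25, adjusted p = 0.000221) and C1qc at a log2 fold change of 1.29 (adjusted p = 7.22e-05). Ctss, a lysosomal protease of these cells, rose from 11.7, 13.1 and 11.6 CPM to 25.3, 24.9 and 20.0 CPM (0.95, adjusted p = 7.66e-06). Tyrobp rose by 1.64 (adjusted p = 0.00369), Trem2 by 1.20, Cd68 by 1.33 and Csf1r by 0.46 (adjusted p = 0.0271), of which Trem2 and Csf1r did not pass by DESeq2. Both calls were also lost without wt pool 1, wt pool 3 or R6/1 pool 1, that of Trem2 without R6/1 pool 2 and that of Csf1r without R6/1 pool 3. Genes that mark resting microglia did not pass. P2ry12 had 4.51, 4.72 and 4.68 CPM in wt and 5.53, 5.07 and 5.66 CPM in R6/1, Cx3cr1 had a log2 fold change of 0.41 and Tmem119 of 0.64. Of 23 genes of the disease-associated state 13 were higher and 2, Spp1 (-0.87) and Igf1 (-0.58), were lower. Cst7, a marker of that state, was found at 10, 10 and 9 counts in the R6/1 pools and at 0, 0 and 1 count in wt.

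The complement list as a whole had 11 of 20 members higher. C4b rose from 5.78, 7.96 and 5.47 CPM to 23.2, 44.7 and 31.8 CPM (log2 fold change 2.38, adjusted p = 0.00751), and the C1 inhibitor Serping1 by 1.43. C3 did not pass (1.14, 0.958 and 1.35 CPM in wt, 1.02, 2.11 and 1.36 CPM in R6/1). Vtn, vitronectin, which photoreceptors express, was the only member to fall (-0.78, adjusted p = 0.0055).

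Genes of antigen presentation by MHC class I were higher. Of 23 genes of class I and the immunoproteasome 14 were higher and none was lower (median log2 fold change 0.75). H2-K1 had 15.5, 16.5 and 15.0 CPM in wt and 38.4, 44.1 and 37.6 CPM in R6/1 (1.36, SE 0.09, adjusted p = 1.30e-08), B2m rose by 1.06 (adjusted p = 0.000147) and their activator Nlrc5 by 2.26 (0.404, 0.516 and 0.395 CPM in wt, 1.35, 3.07 and 1.92 CPM in R6/1). The class I genes are close copies of each other, so counts can be split between them by the quantification. Of 7 class II genes 0 passed by edgeR or by DESeq2 and 1 had an unadjusted p under 0.05. Cd74 had 0.404, 0.884 and 0.282 CPM in wt and 0.282, 1.85 and 0.226 CPM in R6/1, and R6/1 pool 2 stood out. Of 7 tested genes of T, B and NK cells 0 passed by edgeR or by DESeq2 and 0 had an unadjusted p under 0.05, and the other 14 of the 21 listed were not tested.

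Many interferon-stimulated genes were higher. Of 43 such genes 26 were higher and none was lower, with a median log2 fold change of 1.09, and of 16 interferon-induced GTPases 11 were higher (median 1.13). Ddx58, the RNA sensor RIG-I, had 8.54, 7.88 and 9.20 CPM in wt and 20.1, 25.9 and 22.5 CPM in R6/1 (1.42, SE 0.12, adjusted p = 1.64e-07). Ifit1, which binds foreign RNA, had 3.83, 3.98 and 4.06 CPM in wt and 13.5, 19.6 and 12.7 CPM in R6/1 (1.95, SE 0.16, adjusted p = 4.14e-07), and Irgm1, a GTPase of cell-autonomous defence, rose by 1.47 (adjusted p = 7.66e-07). All 3 R6/1 pools lay above wt for these genes. Among the factors that drive them, Irf9 rose by 0.65, while Stat2 (36.7, 37.7 and 36.6 CPM in wt, 34.6, 39.5 and 40.5 CPM in R6/1) and Irf7 overlapped between the groups. Of the 11 tested members of a list of cytokines and chemokines only Cxcl12 passed (0.41), and the other 12 of the 23 listed were not tested. The chemokine Ccl9 (-2.72) and the cytokine Lif also passed but were not on this list.

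**Figure D4:**
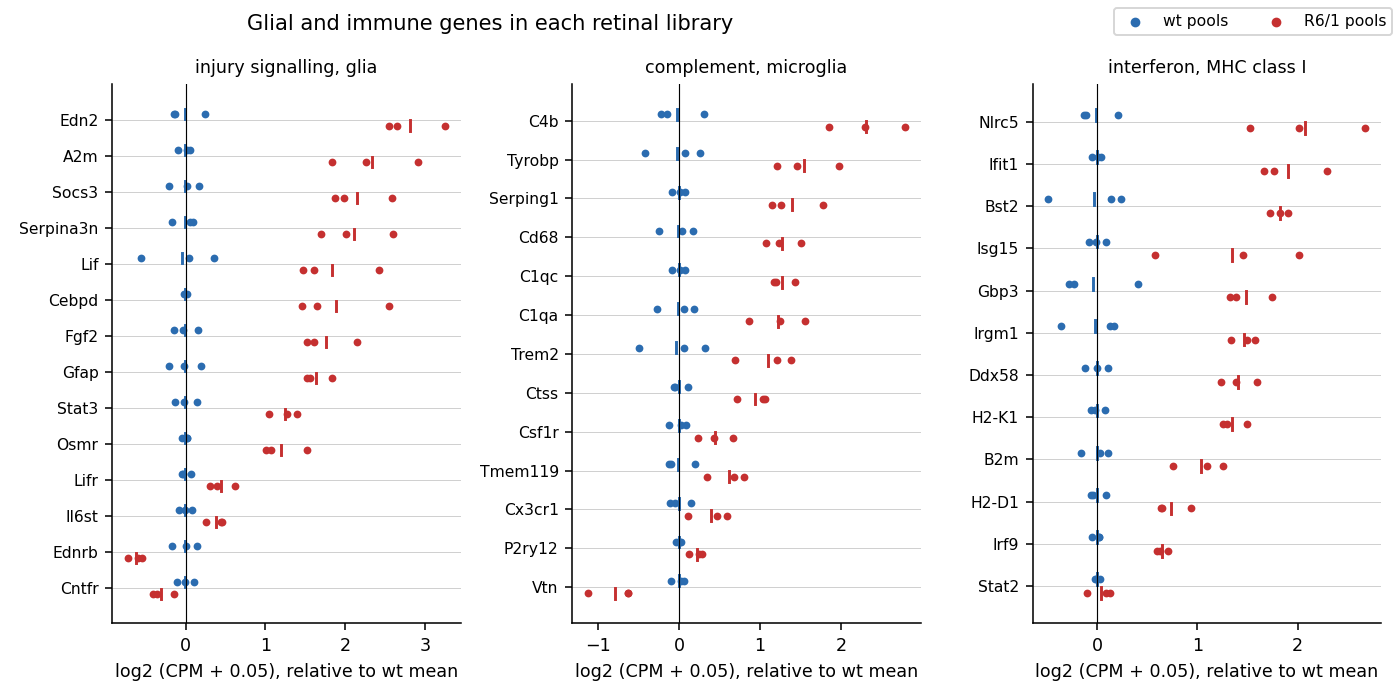
Each point is a retinal library (blue wt, red R6/1, 3 pools each) and each short bar a group mean, as log2 of CPM plus 0.05 relative to the wt mean of that gene. R6/1 pools lie to the right of wt for the injury, complement and interferon genes shown, except for Ednrb, Cntfr and Vtn, which lie to the left, and Cx3cr1 and Stat2, whose groups overlap.

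Interferon genes are known to be switched on through the interferon-stimulated response element (ISRE), with 2 GAAA blocks set 2 bases apart. It was found on either strand in 20 of 36 promoters of the interferon list (55.6%) and in 9 of 10 of the GTPases (90.0%), against 3.04% of all promoters, 5.71% of those of genes higher in R6/1 and 2.89% of those of genes lower. The MHC class I list held it in 5 of 21 promoters (23.8%). Of the genes that rose, Ddx58 and Ifit1 are shown as the members of smallest p with the element, which is in capitals as it reads on the strand of the gene.
Ddx58 (chr4:40239776-40240075, minus strand): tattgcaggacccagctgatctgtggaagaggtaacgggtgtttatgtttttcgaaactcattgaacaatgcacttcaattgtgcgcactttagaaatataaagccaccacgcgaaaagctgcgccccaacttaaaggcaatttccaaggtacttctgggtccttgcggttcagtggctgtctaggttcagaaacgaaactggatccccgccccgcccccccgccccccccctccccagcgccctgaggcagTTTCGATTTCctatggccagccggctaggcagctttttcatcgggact
Ifit1 (chr19:34640639-34640938, plus strand): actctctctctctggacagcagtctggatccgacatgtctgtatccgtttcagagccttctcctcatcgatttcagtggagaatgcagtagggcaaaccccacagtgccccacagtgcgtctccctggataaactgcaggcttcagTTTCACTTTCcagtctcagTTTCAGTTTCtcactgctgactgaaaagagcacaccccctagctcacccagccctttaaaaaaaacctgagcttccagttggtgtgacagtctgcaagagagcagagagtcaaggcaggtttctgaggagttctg

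Clock genes were lower in R6/1 in 13 of 23 cases, and 1, Arntl, was higher (4 with library totals). Arntl encodes BMAL1, which with CLOCK activates many of the others. Nr1d1, which encodes the repressor REV-ERBα, had 133, 133 and 135 CPM in wt and 67.2, 76.4 and 70.2 CPM in R6/1 (log2 fold change -0.91, SE 0.06, adjusted p = 2.81e-08). Per3 had 143, 131 and 128 CPM in wt and 63.2, 67.4 and 72.4 CPM in R6/1 (-0.98, SE 0.07, adjusted p = 2.83e-08), and Dbp fell by 0.71, Per1 by 0.61, Ciart by 0.98 and Per2 by 0.46. Arntl had 113, 110 and 113 CPM in wt and 143, 138 and 143 CPM in R6/1 (0.34, adjusted p = 0.000346). All 3 R6/1 pools lay below wt for Nr1d1 and Per3 and above it for Arntl, and for Clock itself log2 of R6/1 over wt was 0.00 (SE 0.06, adjusted p = 0.97). The sources used here do not give the hour at which tissue was taken, and its part in these values was not tested. The E-box CACGTG, to which BMAL1 and CLOCK bind, was present in 6 of 27 promoters of the list (22.2%) against 9.13% of all promoters. Over all called genes its share was 7.50% of promoters of genes lower in R6/1 and 7.99% of those of genes higher. The promoter of Bhlhe41, a repressor of the same loop (-0.85, adjusted p = 1.46e-07), is shown with the E-box in capitals.
Bhlhe41 (chr6:145865371-145865670, minus strand): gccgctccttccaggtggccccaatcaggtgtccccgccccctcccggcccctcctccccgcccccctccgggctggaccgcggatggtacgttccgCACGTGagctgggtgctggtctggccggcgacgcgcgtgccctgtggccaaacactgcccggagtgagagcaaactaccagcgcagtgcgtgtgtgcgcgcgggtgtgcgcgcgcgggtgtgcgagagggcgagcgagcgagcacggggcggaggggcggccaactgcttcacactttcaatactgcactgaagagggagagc

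Genes of the lysosome were higher in 20 of 45 cases and lower in none, and the count was 13 without wt pool 1, wt pool 3, R6/1 pool 1 or R6/1 pool 3 and 12 in the fit of all 12 libraries. Ctso, a cysteine protease, had 29.2, 30.9 and 29.6 CPM in wt and 71.3, 60.6 and 62.8 CPM in R6/1 (log2 fold change 1.12, SE 0.08, adjusted p = 1.83e-08). Gusb (0.81), Manba (0.80) and Cd63 (0.68) also rose. Smaller rises were seen for Lamp2 (0.22), Psap (0.23) and Ctsd (0.19), and each of these 3 calls was lost without R6/1 pool 1. Lamp2 also did not pass without wt pool 3, and Psap and Ctsd did not pass without wt pool 1, wt pool 2 or R6/1 pool 3, by limma-voom, without the robust estimate of spread or in the fit of all 12 libraries. Of 35 core autophagy genes 4 were higher (14 with library totals, 2 without wt pool 2) and 1, Optn, was lower (-0.61, adjusted p = 2.25e-06), which is 14.3% of the list in either direction against 22.3% of all genes. Optn encodes a receptor that delivers cargo to autophagosomes.

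Energy metabolism shifted by small amounts. Of 74 nuclear genes of the respiratory chain 23 were higher and none was lower (median log2 fold change 0.18), for example Ndufab1 (0.40, adjusted p = 0.000169), and of 22 genes of the citric acid cycle 7 were higher, for example Dlat (0.38). These counts are 31.1% and 31.8% of the lists, against 9.58% of all genes higher. With library totals these counts became 50 and 18, and without wt pool 1 they became 11 and 4. The respiratory count was 13 without R6/1 pool 1 and 14 without wt pool 3. The mitochondrially encoded genes were higher in 2 of 13 cases, mt-Atp6 and mt-Atp8, and in 8 with library totals. In the main test this is 15.4% of the list in either direction, against 22.3% of all genes. DESeq2 called 6 higher and 1 lower, and 1 was higher in the fit of all 12 libraries or without R6/1 pool 1 or any 1 of the wt pools, each of which lost the call of mt-Atp6. Of 24 glycolysis genes 7 were lower and 1, Tpi1, was higher, with the lactate enzyme Ldha at 738, 843 and 790 CPM in wt and 635, 563 and 598 CPM in R6/1 (-0.40, adjusted p = 0.000562) and the lactate transporter Slc16a1 lower by 0.42. The main calls in either direction made up 33.3% of the glycolysis list, against 22.3% of all genes. With library totals 4 glycolysis genes were lower and 3 higher, and without wt pool 3 there were 4 lower. Tpi1 did not pass without wt pool 1 or 3. The regulator of glycolysis Pfkfb2 fell by more (532, 527 and 503 CPM in wt, 244, 223 and 262 CPM in R6/1, -1.10, adjusted p = 7.49e-09). Of 31 genes of cholesterol handling 8 were lower and 2 higher, which is 32.3% in either direction. With library totals these turned to 1 lower and 5 higher, so no direction is given for this family.

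Collagens were lower in 11 of 32 cases (34.4%, against 12.7% of all genes) and higher in none, with 1 higher under library totals. The basement membrane chains Col4a3 (81.7, 96.0 and 79.9 CPM in wt, 10.8, 7.08 and 15.2 CPM in R6/1, log2 fold change -2.96, adjusted p = 0.00336) and Col4a4 (-1.84, adjusted p = 0.00192) are encoded side by side and fell together, and Col20a1 (-2.10) and Col27a1 (-1.55) fell as well. Of 56 clustered protocadherins, the neuronal surface proteins that give cells an identity, 13 were higher and 6 were lower. This is 33.9% in either direction, against 22.3% of all genes. Of the 13 higher genes 11 were from the beta cluster, for example Pcdhb9 (0.62, adjusted p = 0.000118), and 5 of the 6 lower ones were from the gamma cluster, for example Pcdhgb8 (-0.63). These genes are close copies, so the split between them is uncertain, and the higher count was 5 without wt pool 2 and 7 without wt pool 1, the lower count 3 without R6/1 pool 1, and with library totals there were 22 higher and 3 lower.

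Several genes outside these groups had large changes. Prtg, protogenin (chr9:72806874-72917291), had 7.80, 6.48 and 8.86 CPM in wt and 43.8, 58.5 and 42.8 CPM in R6/1 (log2 fold change 2.64, adjusted p = 6.88e-07). Slc6a2, the noradrenaline transporter, had 0.269, 0.516 and 0.734 CPM in wt and 9.65, 9.57 and 6.51 CPM in R6/1 (4.04, SE 0.28, adjusted p = 5.94e-08). Fabp7, a fatty acid binding protein of glial progenitors, rose by 2.59 (adjusted p = 5.95e-06) and Trf, transferrin, rose from 81.8, 76.8 and 91.3 CPM to 183, 192 and 189 CPM (1.17, adjusted p = 3.36e-09). In each of these 4 genes the lowest R6/1 pool was above the highest wt pool.

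In the other direction Xiap, an inhibitor of caspases, fell from 967, 990 and 959 CPM to 574, 507 and 533 CPM (-0.85, adjusted p = 1.12e-07). Of 34 genes of cell death 4 were lower and 3, Tnfrsf1a (1.16), Ripk1 (0.57) and Bbc3 (1.78, a call lost without wt pool 2, wt pool 3 or R6/1 pool 1), were higher (8 with library totals), which is 20.6% of the list in either direction against 22.3% of all genes. Gas7 (-1.40), Glb1l3 (-2.85) and the chemokine Ccl9 (-2.72) also fell. Gm8464, a processed pseudogene on chromosome X, had 57, 42 and 93 counts in wt and none in any R6/1 pool, at least 75.3-fold lower when 3 counts over the group are set as the floor, and at least 60.7-fold lower by the 95% exact interval used for the opsins. The small RNA effector Ago4 rose by 0.86 (adjusted p = 2.38e-07) while its relatives Ago2 (-0.28, not passed with library totals or without wt pool 1) and Ago3 (-0.55) fell. In the mismatch repair list, which holds modifiers of CAG repeat length, 0 of 12 genes passed by edgeR or by DESeq2 and 1 had an unadjusted p under 0.05, while 4 passed as higher with library totals, Msh3 (0.12) among them.

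By position, chromosome X stood apart. Of 588 genes tested on it 95 were higher (16.2%) and 40 were lower (6.80%), whereas on the 19 autosomes 7.51% to 12.2% were higher and 11.1% to 15.6% were lower. The median log2 fold change of X-linked genes was 0.10, against -0.01 to 0.04 for each autosome, and the excess over the median of all genes stayed between 0.07 and 0.10 under all alternatives run. Named examples that passed are the chromatin remodeller Smarca1 (33.2, 35.7 and 36.5 CPM in wt, 59.5, 58.0 and 51.7 CPM in R6/1, log2 fold change 0.68) and Gprasp2 (0.51). All mice were male, and the Y-linked genes Ddx3y and Eif2s3y had log2 fold changes of 0.04 and 0.00. Of 11 Y-linked genes tested 1 passed, Usp9y, with 6, 0 and 0 counts in wt and 14, 39 and 23 counts in R6/1 (3.33, adjusted p = 0.0338), and it did not pass by DESeq2, with a replicate block or without wt pool 2, wt pool 3 or R6/1 pool 3. By level, 20.7% of genes with a mean above 69.4 CPM were lower and 12.8% higher, against 4.46% and 2.62% of genes below 1.39 CPM.

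The striatum of the same mice gave a comparison for how far these effects were shared. The genotype effect was tested as a difference between tissues in 15731 genes, and 1296 of them (8.24%) passed, 765 (4.86%) lower in retina than striatum and 531 (3.38%) higher. The 10 genes with the smallest p among those called in the retina were Stk35, Prtg, Ago4, Klhl18, Slc26a2, Xiap, Col27a1, Pfkfb2, E2f6 and Taok3. Ago4 and Taok3 moved in opposite directions, past the threshold in both tissues. Ago4 had a log2 fold change of 0.86 in retina and -0.62 in striatum (adjusted p = 0.0165), a difference of 1.45 (SE 0.11, adjusted p = 9.43e-06). Taok3, a stress kinase, had -0.80 in retina and 0.40 in striatum (adjusted p = 0.0467), a difference of -1.24 (SE 0.12, adjusted p = 4.13e-05).

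Of 32 microglia and macrophage genes 16 had an effect higher in retina than in striatum, for example C1qc (1.29 in retina, -0.21 in striatum, adjusted p of the difference = 0.000120), and of 19 complement genes 10 did. Stat3 (difference 1.09, adjusted p = 0.000198), Socs3 (3.26, adjusted p = 0.00107) and Fgf2 (2.13, adjusted p = 0.000198) also differed. Of 42 interferon genes 4 had an effect higher in retina and 0 a lower one, against 3.38% and 4.86% of all genes. Among clock genes Per3 (-0.98 in retina, -0.06 in striatum, adjusted p of the difference = 0.000346) and Arntl (0.34 and -0.33, adjusted p of the difference = 0.000791) differed, and no difference was shown for Nr1d1 (-0.91 and -0.62, adjusted p of the difference = 0.478). Of the 15 medium spiny neuron genes tested in retina 5 were lower and 1 higher (3 lower without wt pool 1 or 2, and 0 in the fit of all 12 libraries), with Drd1 at 50.4, 44.9 and 48.7 CPM in wt and 37.3, 36.9 and 34.7 CPM in R6/1 (-0.40, adjusted p = 0.000469), and Ppp1r1b did not pass in the retina (0.01). The main calls in either direction were 40% of this list, against 22.3% of all genes.

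**Figure D5:**
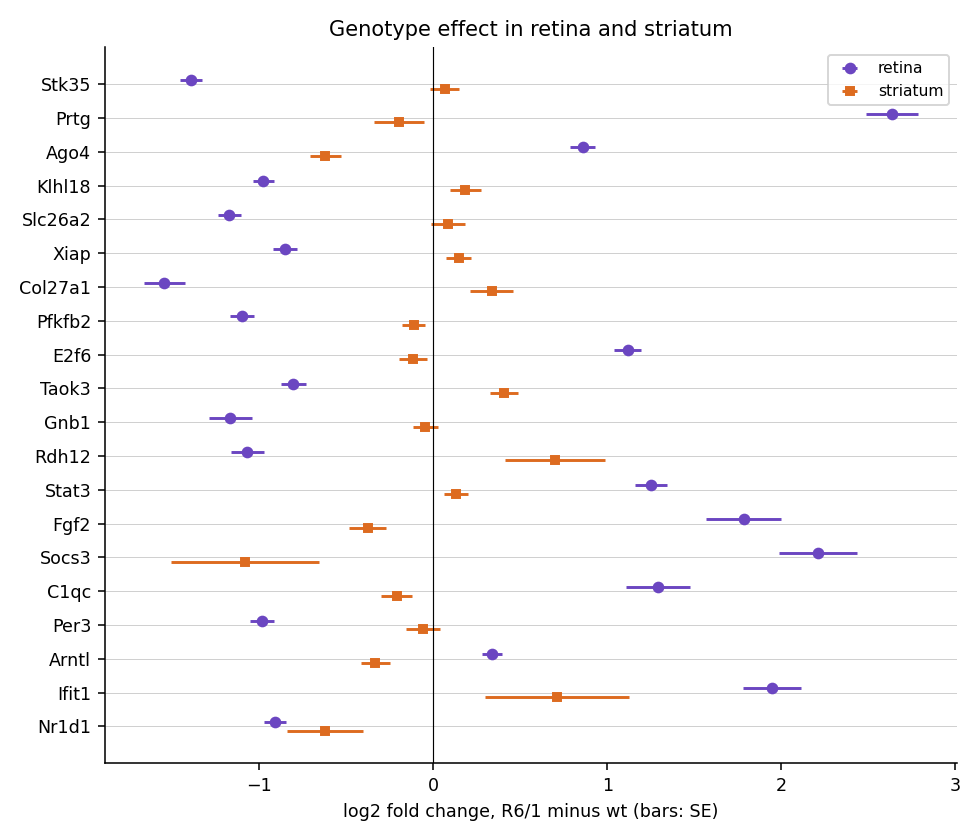
Points are the log2 fold changes of R6/1 over wt in retina (purple circles) and striatum (orange squares) with bars of 1 SE, for the 10 genes with the smallest p for a tissue difference and 10 other genes of the groups described. Ago4 lies at 0.86 in retina and -0.62 in striatum, whereas Nr1d1 lies at -0.91 and -0.62.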

How the data were processed

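RNA from the retinas and striata of R6/1 and wt mice was sequenced as stranded, paired 150-base reads, and each library was a pool of 3 or 4 mice. The authors trimmed the reads with Trimmomatic and quantified them with Salmon on mouse GRCm38 (mm10), after base calling with CASAVA. Versions are not given in the sources used here. The deposited table holds estimated counts per Ensembl gene, not normalized, which were used as deposited after rounding to whole numbers. Pooling RNA evens out single mice, and estimated counts can be split between near-identical genes.

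From these counts, genes with at least 10 counts summed over the 6 retinal libraries were kept, scaled with TMM factors and tested with edgeR 4.0.16 in R 4.3.3 (quasi-likelihood F-test, robust, genotype as the only term), with Benjamini-Hochberg adjustment over all genes. The difference between tissues was tested as an interaction in the 12 libraries, which were treated as unpaired. DESeq2 1.42.0, limma-voom (limma 3.58.1), other scalings and filters, a replicate block and each library left out were alternatives. In simulated counts for the retinal comparison (16436 genes), 100 genes were changed 2-fold and 100 were changed 4-fold, equally up and down. The changed genes were drawn from those with a mean of at least 10 counts per library. Of the 2-fold changes 82% were recovered and of the 4-fold changes 95%, with 19 false calls among the other genes. Recovery of scarcer genes, or with as many changed genes as were called here, was not simulated. Totals were 14070445 to 18661772 counts, and counting intervals are exact and cover counting error only.

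The comparison, gene lists and tests were chosen with earlier results of these data known. Genes could be named if they were among the 15 of smallest p in a direction with at least a 2-fold change, the 10 of largest change, the 6 of smallest p in a list or a member of a list of 15 or fewer, a member against the direction of its list, the 10 most abundant, the 10 of smallest p for the tissue difference, or a cell type marker. Any other gene named was chosen after its values were seen. Results for a few genes that meet the rule are not reported here.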

Additional observations from a re-analysis of the deposited data

Results flagged for a closer look

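The genotype effect differed between retina and striatum for 1296 genes, by the test of the interaction in edgeR. The 10 retinal genes with the smallest p for that difference stood apart for this reason. Their differences, as the log2 fold change in retina minus that in striatum, were -1.49 for Stk35, 2.80 for Prtg, 1.45 for Ago4, -1.19 for Klhl18, -1.28 for Slc26a2, -1.03 for Xiap, -1.92 for Col27a1, -1.02 for Pfkfb2, 1.20 for E2f6 and -1.24 for Taok3. These 10 genes were chosen by the p of this same test, with 3 pools of each genotype in each tissue. That they passed it follows from the choice and adds no support.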

How the results depend on the processing

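The retinal counts depended most on the scaling and on the threshold. At an adjusted p under 0.01 there were 2109 genes (1364 lower and 745 higher), with library totals 3886 genes were higher, and in a fit of all 12 libraries 992 were higher. Leaving out 1 library gave 2517 to 3583 genes, 1557 to 2080 lower and 960 to 1503 higher, with the fewest higher (960) without wt pool 1. DESeq2 called 3050 genes, limma-voom 3395, and RLE size factors 3712. For the difference between tissues the count was 442 at an adjusted p under 0.01 (284 lower and 158 higher), and leaving out 1 library gave 767 to 1999 genes, 445 to 1097 lower and 322 to 902 higher, with the most (1999) without wt striatum pool 2. The cause was not tested. Of 158 called genes named, 130 passed under all alternatives run and 0 changed direction. Of the others, 15 did not pass in the fit of all 12 libraries, among them Otx2, Calb2, Pou4f1, Drd1 and Gprasp2, and 5 did not pass with library totals. The shared replicate numbers did not pair the retinal samples, since the same-number correlations of deviations between genotypes were 0.138, -0.123 and 0.0168, and with a replicate block 3774 genes were called in the retina, of which 3515 were among the 3691. The study states that retinas and striata came from the same animals of both genotypes. In R6/1 the same-number correlations of retina with striatum were 0.242, 0.119 and 0.179, against -0.183 to 0.0201 for different numbers. In wt they were -0.0261, 0.0195 and 0.000763, against -0.0502 to 0.0557. No label says that equal numbers mark the same mice, and the main test of the difference between tissues treated the libraries as independent. With a replicate block that test gave 1122 genes, of which 1003 were among the 1296. The genes named in the report as differing between tissues all passed with the block. No depth limit was met for abundant genes, but genes under 1.39 CPM were called in 4.46% (lower) and 2.62% (higher) of cases.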
